A study of Mus musculus with 24 samples.

Results

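The genes described here were 31 genes of cholesterol synthesis and sterol handling, of 37310 genes in the expression tables. They were chosen by name for their known roles, with earlier results of these data known, and all 31 were matched by symbol to a gene of the annotation. The list held 18 enzymes of the synthesis pathway (7 of the mevalonate and prenyl branch, which runs from acetyl-CoA to the isoprenoid diphosphates, and 11 of the branch from squalene to cholesterol) and 5 regulators of the pathway. It also held 4 genes grouped as uptake, trafficking and esterification (Npc1, Npc2, Stard4, Soat1), with no lipoprotein receptor among them. The last 4 were grouped as efflux and oxysterol genes (Abca1, Abcg1, Mylip, Ch25h), of which Mylip encodes a ubiquitin ligase. Other genes of the pathway were not analysed here, apart from a list of 42 chosen for function that is given by counts.

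Cells make cholesterol from acetyl-CoA through mevalonate, farnesyl diphosphate, squalene and lanosterol. When sterol in the endoplasmic reticulum is low, the escort protein SCAP carries the transcription factors SREBP to the Golgi, where they are cut and released to turn on synthesis and uptake genes, and INSIG proteins hold SCAP back when sterol is plentiful. Oxysterols do the reverse in part, since they activate the nuclear receptor LXR, which drives sterol efflux and also the gene Srebf1. Fat is a large store of free cholesterol, and its cells fill with lipid and build new membrane as they differentiate, in which Srebf1 is also known as a lipogenic factor that responds to insulin.

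Stromal vascular cells were taken from 6-week-old C57BL/6 mice, from the inguinal depot for white (WAT) and from the interscapular depot for brown adipose tissue (BAT), grown to near confluence and pushed toward adipocytes. An induction medium with insulin, dexamethasone and IBMX was used for 4 days, and a medium with insulin and the thyroid hormone T3 for the next 4 days. The medium held epigallocatechin gallate (EGCG), the main catechin of green tea, or DMSO as the control, and the labels give no dose. Cells were collected on day 4 and on day 8, which made 8 groups (2 depots, 2 days, 2 treatments) of 3 libraries, and all groups shared the strain and the age. Groups of one day had the same medium apart from the treatment, so that the day and the change of medium cannot be told apart. The cells were an unsorted primary fraction, and the labels do not say whether the replicates were separate isolations of cells, so that p-values here measure the spread between these libraries, which may be technical.

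Expression was given as FPKM, reads scaled by gene length and by the reads on genes in the library. Replicates 1 and 2 stood in one table (39452696 to 52893848 reads on genes per library) and replicate 3 in a second one that had been made separately (16392420 to 41675643 reads). Tests used replicates 1 and 2, and replicate 3 gave the direction only. Library values are listed below in the order replicate 1, 2 and 3. In replicate 3 of the WAT day 8 EGCG cells, 5 genes took 61.0% of the reads, against 3.64% to 10.5% in the other 23 libraries, so that the third value of that group was low for most members. All 31 members passed the filter on low values (FPKM of at least 1 in at least 2 of 16 libraries), which 14095 genes did. Among replicates 1 and 2 the lowest member value was 0.844 FPKM (53 reads) for Ch25h in a BAT day 8 control and the highest was 267 FPKM for Npc2 in a BAT day 8 control.

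The make-up of the cultures moved with the treatment. All 8 mature adipocyte markers (Adipoq, Pparg, Cebpa, Fabp4, Plin1, Cidec, Lipe, Cfd) were lower in EGCG cells of both depots at both times, and none was at 0 in a library. Their summed level was 2156 to 2469 FPKM in WAT day 4 controls and 404 to 443 with EGCG, and 4928 to 5741 and 152 to 165 on day 8. In BAT it was 5256 to 6151 and 1248 to 1271 on day 4, and 10021 to 10114 and 329 to 332 on day 8. Of 10 macrophage markers 8 were tested: 7 were higher with EGCG in WAT and 6 in BAT on day 4, and 8 were lower in each depot on day 8. The summed macrophage level went from 81.3 to 87.4 in controls to 208 to 211 FPKM with EGCG in WAT on day 4 and from 192 to 204 to 410 to 452 in BAT, and on day 8 from 137 to 173 to 57.4 to 60.9 in WAT and from 135 to 137 to 60.8 to 62.1 in BAT. Among them Cx3cr1 was at 0 in at least 1 library and Ptprc did not exceed 0.857 FPKM. The summed endothelial level was 11.2 to 24.6 FPKM in the control libraries and 30.2 to 38.8 with EGCG, and the fibroblast and progenitor level was 1227 to 3731 and 1120 to 1607. In the latter list Col1a1 alone measured 460 to 3223 FPKM over all libraries. Of 6 endothelial markers 5 were higher with EGCG on day 4 in each depot. On day 8, 4 were higher and 1 lower in WAT, and 5 and 1 in BAT. Of 6 fibroblast and progenitor markers 1 was higher and 3 lower in WAT on day 4, and 1 and 4 on day 8. In BAT these were 2 and 2 on day 4, and 1 and 3 on day 8. The part of these shifts in the results below was not tested, and in bulk RNA fewer cells of a type and less RNA per cell cannot be told apart.

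With EGCG the sterol genes did not move as one group. Srebf1 and Insig1 were lower and Soat1 and Scap were higher in both depots on both days, whereas the synthesis enzymes fell mostly in BAT and split in WAT. In WAT, 13 of 31 members were higher and 6 lower with EGCG on day 4 (limma, adjusted p under 0.05), where 53.7% of all genes tested were called, 34.4% higher and 19.3% lower. On day 8, 13 were higher and 14 lower, where 63.6% of all genes were called, 44.7% higher and 18.9% lower. In BAT, 5 were higher and 20 lower on day 4, against 48.5% of all genes called, 27.9% higher and 20.6% lower, and 10 were higher and 17 lower on day 8, against 72.6%, 46.5% higher and 26.1% lower. The WAT day 4 split was 10 higher and 11 lower after median-ratio scaling and 11 and 8 after quantile normalization. Over the 31 members the median log2 change was 0.06 and 0.02 in WAT on day 4 and day 8 and -0.32 and -0.36 in BAT, beside 0.09, 0.17, 0.03 and 0.17 over all genes tested. Median-ratio scaling moved the median of all genes by over 0.1 in 3 of these 4 contrasts, to -0.02 (WAT, day 4), 0.01 (WAT, day 8) and 0.02 (BAT, day 8), so that medians are also given below relative to that of all genes.

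**Figure D1:**
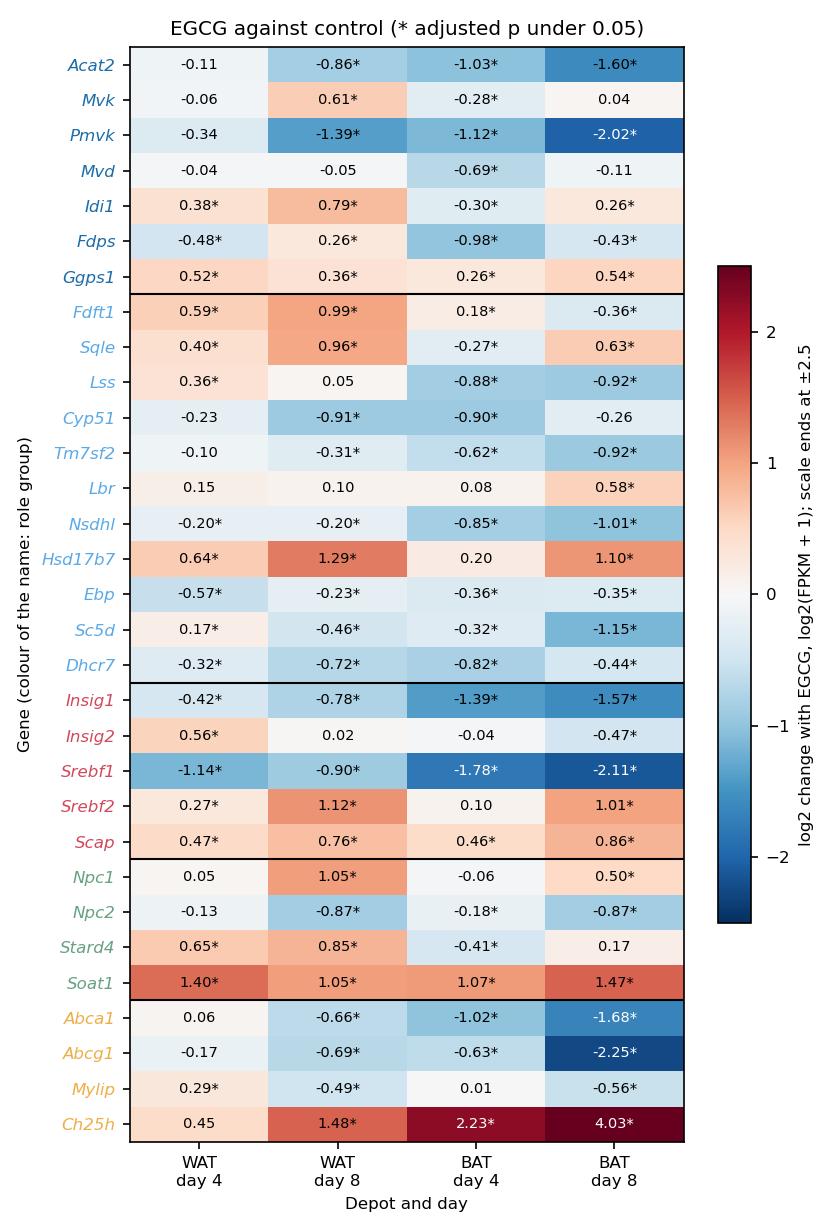
Heat map of the log2 change with EGCG, log2(FPKM + 1), for the 31 genes (rows, grouped by role) in each depot and day (columns), from replicates 1 and 2. An asterisk marks an adjusted p under 0.05, red is higher and blue lower with EGCG. The 2 BAT columns are mostly blue for the synthesis enzymes, Srebf1 and Insig1 are blue throughout, Scap and Soat1 are red throughout, and Ch25h reached 4.03 in BAT on day 8.

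Across the 4 contrasts, 3 members were higher in each (Ggps1, Scap, Soat1) and 5 were lower in each (Nsdhl, Ebp, Dhcr7, Insig1, Srebf1). Another 10 were called in both directions, in different depots or days (Mvk, Idi1, Fdps, Fdft1, Sqle, Lss, Sc5d, Insig2, Stard4, Mylip). The shares of all genes tested that met the same criteria were not counted, so that these counts have no background beside them. For Mvk, Sqle and Stard4 in BAT on day 4 and for Sc5d and Mylip in WAT on day 4, a call that gave one of the directions was lost without single libraries. The direction in replicate 3 was that of the test for all 19, 25 and 27 called members in WAT day 4, BAT day 4 and BAT day 8. In WAT day 8 it was so for 15 of 27 as deposited and for 27 of 27 once the libraries were scaled by median ratios. WAT day 4 then had 18 of 19. For the EGCG effect between depots, replicate 3 had the direction of the test for 22 of 23 on day 4 either way. On day 8 these were 5 of 21 as deposited and 21 of 21 scaled. For that effect between days in WAT they were 12 of 22 and 21 of 22, and between days in WAT EGCG cells 17 of 24 and 24 of 24. Between control depots they were 22 of 22 and 18 of 22 on day 4, and 18 of 20 and 19 of 20 on day 8.

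The synthesis enzymes were compared first. In BAT 14 of 18 were lower with EGCG on day 4 and 10 of 18 on day 8, while 2 and 5 were higher, beside 20.6% and 26.1% of all genes tested lower and 27.9% and 46.5% higher. In WAT 4 were lower and 7 higher on day 4, and 8 lower and 7 higher on day 8, and with median-ratio scaling the WAT day 4 split became 7 lower and 6 higher. Of all genes tested 19.3% and 18.9% were lower in WAT on the 2 days and 34.4% and 44.7% higher, so that the share of enzymes higher in WAT was near that of all genes. As deposited, the share of enzymes lower in WAT was near that of all genes on day 4 (4 of 18) and above it on day 8 (8 of 18). Their median log2 change was -0.05 and -0.00 in WAT on day 4 and day 8 and -0.49 and -0.35 in BAT. Relative to the median of all genes it was -0.14 and -0.17 in WAT and -0.52 in BAT on either day.

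Within the mevalonate and prenyl branch (7 genes), 2 were higher and 1 lower in WAT on day 4, 4 and 2 in WAT on day 8, 1 and 6 in BAT on day 4, and 2 and 3 in BAT on day 8. The shares of all genes tested that were higher and lower were 34.4% and 19.3%, 44.7% and 18.9%, 27.9% and 20.6%, and 46.5% and 26.1% in the same order. Acat2 (ENSMUSG00000023832.7, build mm9, chromosome 17, 13135756 to 13153613) is the cytosolic thiolase that joins acetyl-CoA units at the start of the pathway. It measured 39.7, 48.2 and 51.0 FPKM in BAT day 4 controls and 20.6, 21.3 and 21.4 with EGCG. On day 8 in BAT it measured 36.4, 33.6 and 37.5 in controls and 9.75, 12.1 and 10.7 with EGCG. All EGCG libraries were below all controls on both days, and the mean was 3.20-fold lower on day 8 (log2 change -1.60 ± 0.128 SE, adjusted p 3.16e-07). In WAT the log2 change was -0.11 on day 4, which did not pass, and -0.86 on day 8.

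Pmvk (ENSMUSG00000027952.8, chromosome 3, 89263040 to 89272935), the second of the mevalonate kinases, showed the largest decrease among the enzymes. It measured 34.4, 36.3 and 33.5 FPKM in BAT day 8 controls and 7.15, 8.84 and 8.98 with EGCG, 4.42-fold lower (log2 change -2.02 ± 0.149 SE, adjusted p 1.58e-07). In WAT on day 8 it measured 20.4, 29.7 and 28.7 in controls and 8.73, 8.89 and 3.20 with EGCG (log2 change -1.39 ± 0.149 SE). Replicates 1 and 2 with EGCG lay below all controls in both depots, and the third WAT EGCG library was low for most members. Mvk, the first of these kinases, moved less and unevenly, with a log2 change of 0.61 in WAT on day 8 and -0.28 in BAT on day 4, and -0.06 and 0.04 in the contrasts that did not pass. The BAT day 4 change of Mvk was -0.17 and did not pass without the second BAT day 4 control.

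Mvd, which forms isopentenyl diphosphate, measured 23.9, 24 and 25.4 FPKM in BAT day 4 controls and 14.9, 14.2 and 15.4 with EGCG (log2 change -0.69 ± 0.05 SE, adjusted p 5.31e-07). The groups did not overlap there, and the other 3 contrasts did not pass (-0.04, -0.05 and -0.11). Fdps, the farnesyl diphosphate synthase at the branch point to sterols and prenyl groups, measured 78.2, 82.7 and 86.4 FPKM in BAT day 4 controls and 40.1, 40.2 and 47.8 with EGCG (log2 change -0.98 ± 0.0582 SE). Fdps was also lower in WAT on day 4 (-0.48) and in BAT on day 8 (-0.43), where it measured 52.8, 54.0 and 67.1 in controls and 38.0, 41.0 and 51.5 with EGCG. In WAT on day 8 it was higher, from 44.2 and 48.6 to 54.6 and 56.5 in replicates 1 and 2, with 50.0 and 24.4 in replicate 3. That increase (log2 change 0.26) was 0.06 after median-ratio scaling and no longer passed.

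Idi1 (ENSMUSG00000058258.6, chromosome 13, 8884852 to 8891641), the isopentenyl diphosphate isomerase, moved in opposite directions in the depots on day 4. In WAT it measured 13.7, 12.9 and 12 FPKM in controls and 18, 17.4 and 16.4 with EGCG (log2 change 0.38 ± 0.0615 SE, adjusted p 0.000275). In BAT it measured 17.9, 17.3 and 16.6 in controls and 13.4, 14.8 and 13.2 with EGCG (log2 change -0.30 ± 0.0615 SE, adjusted p 0.00153). The 3 EGCG libraries stood above the controls in WAT and below them in BAT. On day 8 Idi1 was higher with EGCG in both depots, by 0.79 in WAT and 0.26 in BAT, and the BAT value became 0.09 with median-ratio scaling and 0.15 with quantile normalization, where it did not pass. Ggps1, the synthase of geranylgeranyl diphosphate, which serves protein prenylation and not sterol synthesis, was higher in each contrast (0.52, 0.36, 0.26 and 0.54), where the BAT day 4 value was 0.17 without the second BAT day 4 control. Its values in BAT on day 8 were 10.9, 11.6 and 9.87 FPKM in controls and 17.3, 16.3 and 14 with EGCG. Exons of Ggps1 overlap those of Arid4b on the other strand, and whether counting used the strand is not given in the sources used here.

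In the branch from squalene to cholesterol (11 genes), 5 were higher and 3 lower in WAT on day 4, 3 and 6 in WAT on day 8, 1 and 8 in BAT on day 4, and 3 and 7 in BAT on day 8. These counts stand beside the same shares of all genes, 34.4% higher and 19.3% lower, 44.7% and 18.9%, 27.9% and 20.6%, and 46.5% and 26.1%. Hsd17b7 (ENSMUSG00000026675.6, chromosome 1, 171879666 to 171899372), a ketoreductase of the steps that remove methyl groups from lanosterol, had the largest increase of the enzymes. It measured 7.55, 5.49 and 5.77 FPKM in WAT day 8 controls and 17.6, 16.9 and 5.57 with EGCG, a 2.64-fold higher mean of replicates 1 and 2 (log2 change 1.29 ± 0.0982 SE, adjusted p 4.12e-07). In BAT on day 8 it measured 6.75, 6.39 and 6.13 in controls and 14.6, 15.8 and 14 with EGCG (log2 change 1.10 ± 0.0982 SE, adjusted p 8.39e-07). Replicates 1 and 2 were above the controls in both depots, and only the WAT replicate with 61.0% of reads on 5 genes was not. The WAT day 4 change was 0.64, and that in BAT on day 4 (0.20) did not pass.

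Sqle, the squalene epoxidase and a control point of the pathway, behaved in a similar way. It measured 12.6, 8.99 and 8.74 FPKM in WAT day 8 controls and 21.0, 22.2 and 8.15 with EGCG (log2 change 0.96 ± 0.1 SE), and 8.40, 8.51 and 8.89 in BAT day 8 controls and 13.6, 13.6 and 13.3 with EGCG (log2 change 0.63 ± 0.1 SE). On day 4 it was higher with EGCG in WAT (0.40) and lower in BAT (-0.27, adjusted p 0.0465), where it measured 26.5, 26.6 and 26.5 in controls and 22.1, 21.8 and 23.7 with EGCG. The 3 BAT EGCG libraries were below the 3 controls, but the BAT decrease no longer passed in 14 of the 16 fits that left out 1 library, with a log2 change of -0.26 to -0.27 in them.

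Fdft1, the squalene synthase that commits farnesyl diphosphate to sterols, was higher with EGCG in WAT and lower in BAT on day 8. It measured 14, 13.5 and 13.1 FPKM in WAT controls and 28.2, 28.4 and 10.4 with EGCG (log2 change 0.99 ± 0.051 SE, adjusted p 1.95e-08). In BAT it measured 22.4, 24.4 and 22.1 in controls and 18.1, 17.8 and 17.9 with EGCG (log2 change -0.36 ± 0.051 SE, adjusted p 4.25e-05). Its exons overlap those of Ctsb on the other strand. Lss, which closes the sterol rings to form lanosterol, measured 7.05, 7.56 and 7.36 FPKM in WAT day 4 controls and 9.92, 9.35 and 10.1 with EGCG (log2 change 0.36 ± 0.0669 SE). In BAT on day 4 it measured 12.6, 13.8 and 13.6 in controls and 6.92, 6.58 and 7.17 with EGCG (log2 change -0.88 ± 0.0669 SE, adjusted p 7.73e-07). The BAT value on day 8 was similar (-0.92), that in WAT on day 8 did not pass (0.05), and exons of Lss overlap 4930483K19Rik on the other strand.

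Sc5d (ENSMUSG00000032018.7, chromosome 9, 42062260 to 42072383), a sterol desaturase near the end of the pathway, measured 61.3, 60.3 and 51.3 FPKM in BAT day 8 controls and 25.9, 27.9 and 25.1 with EGCG. This was a 2.26-fold lower mean (log2 change -1.15 ± 0.0637 SE, adjusted p 1.32e-08), with no overlap of the groups. In WAT on day 8 it was also lower (-0.46), from 51.0, 57.9 and 44.4 to 38.4, 39.9 and 13.3. The small WAT day 4 increase (0.17, from 22.8, 22.3 and 19.9 to 25.0, 26.2 and 21.2) overlapped between the groups when replicate 3 was counted. It was lost without any 1 of the 4 WAT day 4 libraries (0.14 to 0.21) and with median-ratio scaling (0.04). Nsdhl, a dehydrogenase of the same demethylation steps as Hsd17b7, measured 22.7, 22.6 and 21.3 FPKM in BAT day 8 controls and 10.7, 10.7 and 11 with EGCG (log2 change -1.01 ± 0.0752 SE, adjusted p 1.59e-07). Its BAT day 4 change was -0.85 and its WAT changes were -0.20 on either day. The WAT day 4 call was lost without 13 of the 16 libraries in turn (-0.12 to -0.23), and the WAT day 8 call without the second WAT day 8 control (-0.07) or either WAT day 8 EGCG library (-0.23 and -0.16).

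Cyp51, the lanosterol demethylase, measured 71.1, 75.4 and 74.2 FPKM in BAT day 4 controls and 38.8, 38.7 and 35.8 with EGCG (log2 change -0.90 ± 0.142 SE). In WAT on day 8 it measured 51.0, 80.5 and 76.0 in controls and 33.9, 33.4 and 12.3 with EGCG (log2 change -0.91 ± 0.142 SE). Replicates 1 and 2 with EGCG were below all controls there, and the third EGCG library was low for most members. Without the second WAT day 8 control the change of Cyp51 was -0.59. Tm7sf2 and Lbr encode 2 reductases for the same sterol step, of which Lbr is also a protein of the inner nuclear membrane, and they differed. Tm7sf2 was lower in BAT on day 8, from 8.17, 8.98 and 8.80 to 4.38, 3.76 and 3.52 FPKM (log2 change -0.92 ± 0.0997 SE). Lbr was higher in the same libraries, from 4.26, 4.74 and 4.51 to 7.12, 7.26 and 6.48 (log2 change 0.58 ± 0.0815 SE), and did not pass in the other 3 contrasts (0.15, 0.10 and 0.08). Exons of Tm7sf2 overlap 1110014N23Rik on the same strand. Ebp, a sterol isomerase, and Dhcr7, the reductase of the last step, were lower in each contrast, by -0.23 to -0.57 and by -0.32 to -0.82. The Ebp call in WAT on day 8 was lost without the second WAT day 8 control (-0.14), among others.

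**Figure D2:**
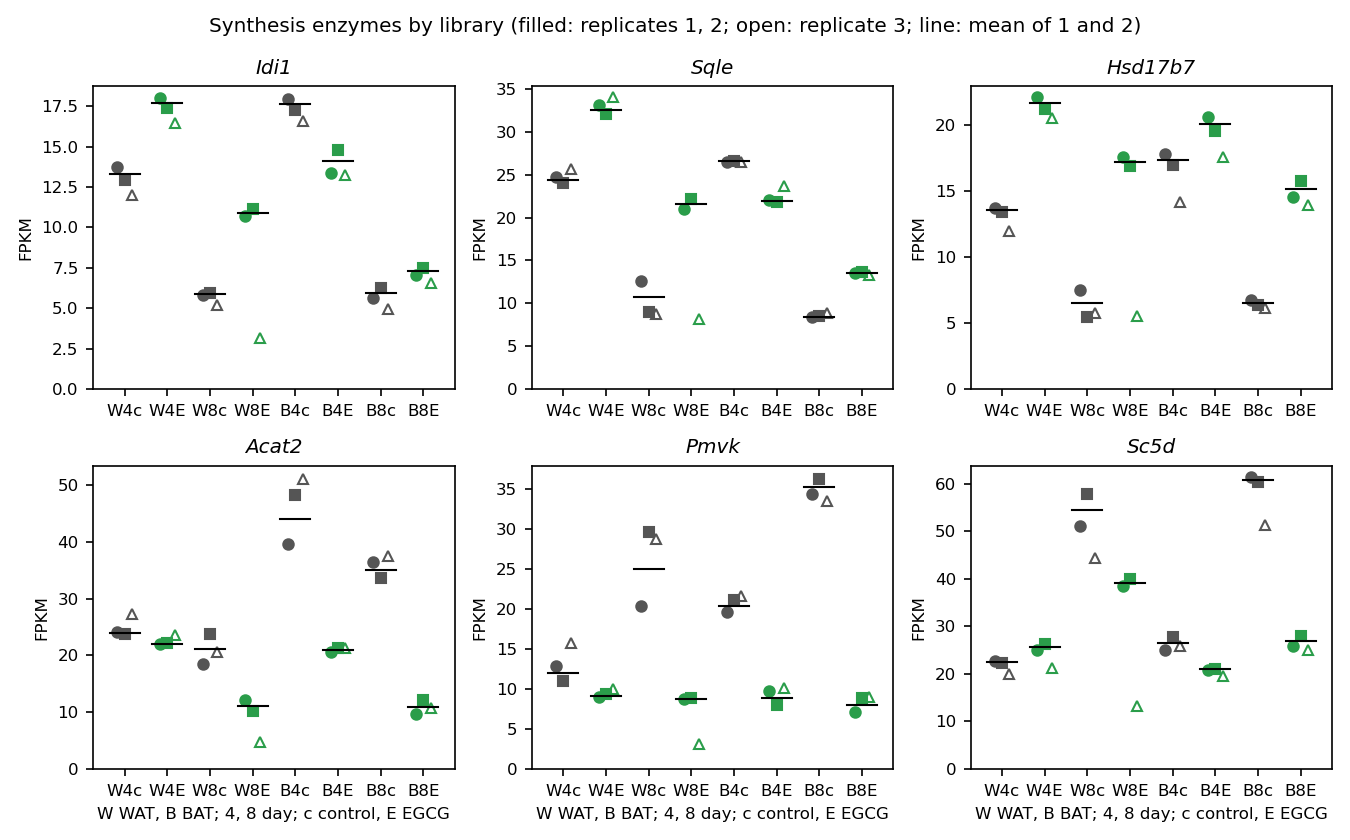
FPKM of 6 synthesis enzymes in all 24 libraries, with groups along the x axis (W, WAT, B, BAT, 4 and 8, day, c, control in grey, E, EGCG in green). Filled symbols are replicates 1 and 2, open triangles replicate 3, and the line is the mean of replicates 1 and 2. In replicates 1 and 2, Idi1, Sqle and Hsd17b7 fell from day 4 to day 8 in controls and stood higher with EGCG on day 8, whereas Acat2, Pmvk and Sc5d were lower with EGCG on day 8 in both depots.

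The start-site sequences of 2 enzymes that were higher with EGCG on day 8 in both depots (Idi1, Hsd17b7) and of 2 that were lower (Acat2, Sc5d) are shown next, since SREBP acts at promoters together with the factor NF-Y. Each runs 5′ to 3′ on the strand of the gene from 250 bases before to 50 bases after the start. They come from the RefSeq promoter table (GRCm38.p6) and were found once each by exact match in build NCBIM37 (mm9), at chr13:8884602-8884901 on the plus strand for Idi1, and at chr1:171899287-171899586, chr17:13153542-13153841 and chr9:42072334-42072633 on the minus strand for Hsd17b7, Acat2 and Sc5d. Capitals mark the NF-Y box CCAAT, read as ATTGG on the other strand, and the E-box CACGTG.
Idi1: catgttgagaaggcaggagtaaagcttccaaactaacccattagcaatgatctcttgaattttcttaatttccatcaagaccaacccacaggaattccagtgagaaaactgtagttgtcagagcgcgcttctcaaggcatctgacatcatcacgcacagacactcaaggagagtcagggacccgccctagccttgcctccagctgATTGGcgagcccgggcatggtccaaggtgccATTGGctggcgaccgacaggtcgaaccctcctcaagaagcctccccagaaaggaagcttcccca
Hsd17b7: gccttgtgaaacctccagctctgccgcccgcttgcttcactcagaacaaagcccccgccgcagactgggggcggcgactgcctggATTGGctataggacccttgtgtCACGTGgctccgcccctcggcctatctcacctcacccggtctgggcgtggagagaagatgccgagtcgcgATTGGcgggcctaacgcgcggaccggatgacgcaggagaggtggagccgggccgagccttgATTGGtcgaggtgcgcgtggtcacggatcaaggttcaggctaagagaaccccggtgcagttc
Acat2: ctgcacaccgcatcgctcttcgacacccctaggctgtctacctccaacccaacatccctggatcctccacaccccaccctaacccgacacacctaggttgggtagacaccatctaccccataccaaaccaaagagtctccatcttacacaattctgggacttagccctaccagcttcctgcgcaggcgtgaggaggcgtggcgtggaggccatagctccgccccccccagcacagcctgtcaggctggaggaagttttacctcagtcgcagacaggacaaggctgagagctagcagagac
Sc5d: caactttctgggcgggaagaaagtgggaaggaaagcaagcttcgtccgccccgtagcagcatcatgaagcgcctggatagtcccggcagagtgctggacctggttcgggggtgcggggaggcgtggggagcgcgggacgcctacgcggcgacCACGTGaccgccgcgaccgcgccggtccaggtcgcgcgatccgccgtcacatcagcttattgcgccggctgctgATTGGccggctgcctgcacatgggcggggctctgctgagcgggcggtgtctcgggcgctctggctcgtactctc

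In these windows Idi1 held 2 NF-Y boxes, 45 and 14 bases before the start. Hsd17b7 held 3 and an E-box, Sc5d held 1 of each, and Acat2 held neither. These 4 do not stand for the rest. Ggps1, also higher with EGCG on day 8 in both depots, held 3 NF-Y boxes. Of the other enzymes that were lower there, Nsdhl held 4, Ebp 2 and Tm7sf2 1. Dhcr7 held up to 2 and Pmvk up to 1 in a promoter. The table had 33 promoters for 25 of the 31 members, and 6 members had no entry (Fdps, Fdft1, Sqle, Npc1, Stard4, Abcg1). An NF-Y box on either strand was in 14 of 18 promoters of the synthesis enzymes, which belong to 15 genes, and in at least 1 promoter of 14 of the 15. It was in 22 of the 33 member promoters, and in 37.4% of all 32851 promoters of the same length. The E-box was in 7 of 33 promoters, which belong to 6 of the 25 genes, against 7.15% of all promoters. The overlapping Scap windows held the same E-box. The sterol regulatory element core TCACNCCAC was in 0 of 33, against 1.24%, and the DR4 element, to which LXR binds, in 0 of 33, against 0.0152%. These are matches of letters on both strands in this window, and they say nothing of binding. The DR4 letters searched were in only 5 of all 32851 promoters, so that a match among 33 was unlikely from the start. The DR4 count therefore cannot tell whether members hold other forms of this element.

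The EGCG effect was then compared between the depots, as the difference of the log2 changes (BAT minus WAT) in the same model. On day 4, 22 of 31 members had a lower effect in BAT and 1 a higher one, against 28.1% of all genes tested called, 16.1% lower and 12.0% higher. The lower effects included 15 of the 18 synthesis enzymes. Counted without the test, 17 of 18 had a lower value in BAT than in WAT, and the share of all genes with a lower value was not counted. The median difference over the 18 was -0.51, beside -0.06 over all genes. After median-ratio scaling 12 of the 18 still passed, and after quantile normalization 14 did.

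The largest of these differences among the enzymes were -1.23 ± 0.0946 SE for Lss (adjusted p 5.29e-06), -0.92 ± 0.181 SE for Acat2 and -0.78 ± 0.211 SE for Pmvk. Of 23 calls, 16 held in every fit that left out 1 of the 16 libraries, and those of Pmvk, Ggps1, Cyp51, Tm7sf2, Hsd17b7, Soat1 and Ch25h did not. Without a library the difference was -0.63 to -0.71 for Cyp51 and -0.40 to -0.47 for Hsd17b7 where the call was lost. On day 8, 17 members had a lower effect in BAT and 4 a higher one (Cyp51, Lbr, Soat1, Ch25h), against 39.2% of all genes called, 19.7% lower and 19.4% higher. The day 8 call of Cyp51 (0.65) was lost without 5 of the 16 libraries in turn (0.61 to 0.67) and was 0.97 and 0.32 without the first and the second WAT day 8 control, and that of Pmvk (-0.63) was lost without 6 of them (-0.37 to -0.67). Among the enzymes 10 were lower, led by Fdft1 (-1.35 ± 0.0721 SE, adjusted p 2.92e-07), Lss (-0.96) and Nsdhl (-0.82). The mature adipocyte markers differed in the other direction, with 6 of 8 on day 4 and 4 of 8 on day 8 less lowered in BAT and 1 more lowered on day 8, and their part in the difference was not tested.

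**Figure D3:**
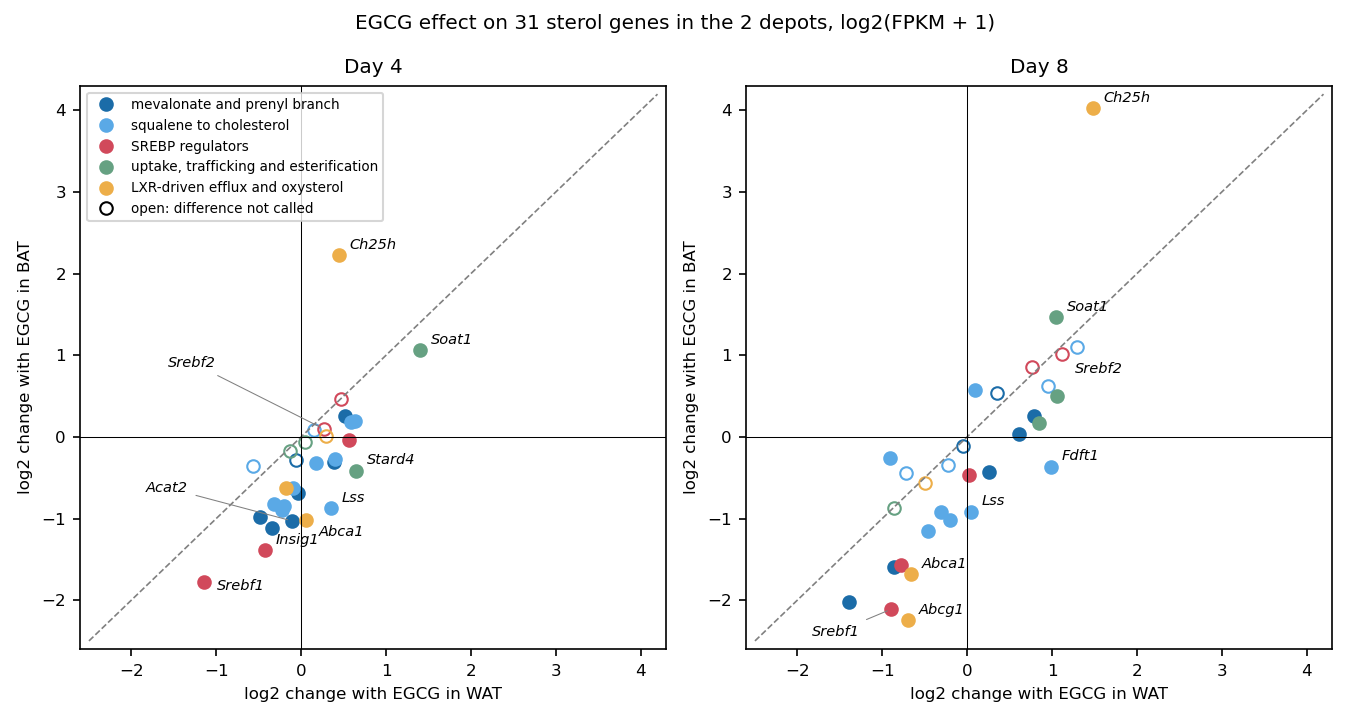
Log2 change with EGCG in WAT (x axis) against that in BAT (y axis) for the 31 genes on day 4 (left) and day 8 (right), coloured by role group, on the log2(FPKM + 1) scale. Points below the dashed line of equal change have a lower effect in BAT, and filled points passed the test of that difference. On day 4 nearly all filled points lie below the line, and Ch25h lies above it on both days.

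The 5 regulators did not change together. Srebf1 (ENSMUSG00000020538.8, chromosome 11, 60012591 to 60036083) encodes SREBP-1, which serves fatty acid synthesis and is itself a target of LXR and insulin. It measured 65.8, 61.4 and 75.5 FPKM in WAT day 4 controls and 29.1, 27.5 and 31.7 with EGCG, and 59.8, 69.9 and 70.3 in WAT day 8 controls and 35.2, 33.5 and 14 with EGCG. In BAT it measured 109, 125 and 126 in day 4 controls and 33.3, 33.2 and 37.1 with EGCG, and 132, 136 and 142 in day 8 controls and 30.1, 30.4 and 32.2 with EGCG. All EGCG libraries were below all controls, and the 4 EGCG groups stood closer to one another than the 4 control groups did.

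The log2 changes of Srebf1 were -1.14 and -0.90 in WAT on day 4 and day 8, and -1.78 and -2.11 in BAT (± 0.0753 SE, adjusted p 3.72e-10 in BAT on day 8, a 4.43-fold lower mean). The decrease was larger in BAT by -0.64 ± 0.107 SE on day 4 and by -1.22 ± 0.107 SE on day 8 (adjusted p 7.31e-06). Exons of Srebf1 overlap those of Rai1 on the other strand. Insig1 (ENSMUSG00000045294.9, chromosome 5, 28397952 to 28405201), which retains SCAP and is itself an SREBP target, was lower in the same way. It measured 78.3, 85.9 and 76.0 FPKM in BAT day 4 controls and 30.3, 31 and 28.9 with EGCG, and 62.0, 63.9 and 58.0 in BAT day 8 controls and 20.4, 20.7 and 21.2 with EGCG (log2 change -1.57 ± 0.107 SE, adjusted p 8.24e-08).

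In WAT the decrease of Insig1 was smaller. The values were 67.7, 61.7 and 65.8 in day 4 controls and 47.5, 48.4 and 45.0 with EGCG (log2 change -0.42 ± 0.107 SE), and 74.1, 53.9 and 46.0 in day 8 controls and 36.0, 36.9 and 12.7 with EGCG (-0.78 ± 0.107 SE). The groups did not overlap, but without the first WAT day 4 control the day 4 change was -0.36 and did not pass. The difference between depots was -0.97 ± 0.152 SE on day 4 and -0.79 ± 0.152 SE on day 8. Insig2, a second retention protein, was higher in WAT on day 4, from 12.2, 11.3 and 11.2 to 18.3, 17.3 and 17.4 FPKM (log2 change 0.56 ± 0.0578 SE), and lower in BAT on day 8, from 23.8, 24.9 and 22.5 to 16.6, 18 and 17 (-0.47 ± 0.0578 SE). In WAT on day 8 its change was 0.02 as deposited and -0.17 after median-ratio scaling, where it passed as lower.

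Srebf2 (ENSMUSG00000022463.6, chromosome 15, 81977696 to 82035806) encodes SREBP-2, the main activator of the cholesterol synthesis genes, and moved opposite to Srebf1. It measured 26.2, 21.2 and 21.5 FPKM in WAT day 8 controls and 52.5, 52.0 and 20.2 with EGCG (log2 change 1.12 ± 0.0718 SE, adjusted p 1.07e-07). In BAT on day 8 it measured 18.5, 18.2 and 19.8 in controls and 37.0, 38.9 and 38.8 with EGCG, 2.07-fold higher (log2 change 1.01 ± 0.0718 SE, adjusted p 1.09e-07). On day 4 it was higher in WAT by 0.27, which fell to 0.13 and did not pass with median-ratio scaling, and the BAT change was 0.10 and did not pass. The difference between depots did not pass on either day (-0.17, 95% interval -0.40 to 0.05, and -0.11, 95% interval -0.33 to 0.12).

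Scap (ENSMUSG00000032485.8, chromosome 9, 110235792 to 110287450), the escort of both SREBPs, was higher with EGCG in each contrast. It measured 12, 11.2 and 14.8 FPKM in BAT day 8 controls and 21.6, 22 and 25.8 with EGCG (log2 change 0.86 ± 0.0545 SE, adjusted p 4.19e-08). In WAT on day 4 it measured 23.2, 22.8 and 24.1 in controls and 33.0, 31.6 and 40.1 with EGCG (log2 change 0.47 ± 0.0545 SE). The EGCG libraries were above the controls in both. Exons of Scap overlap 5830462I19Rik on the other strand.

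**Figure D4:**
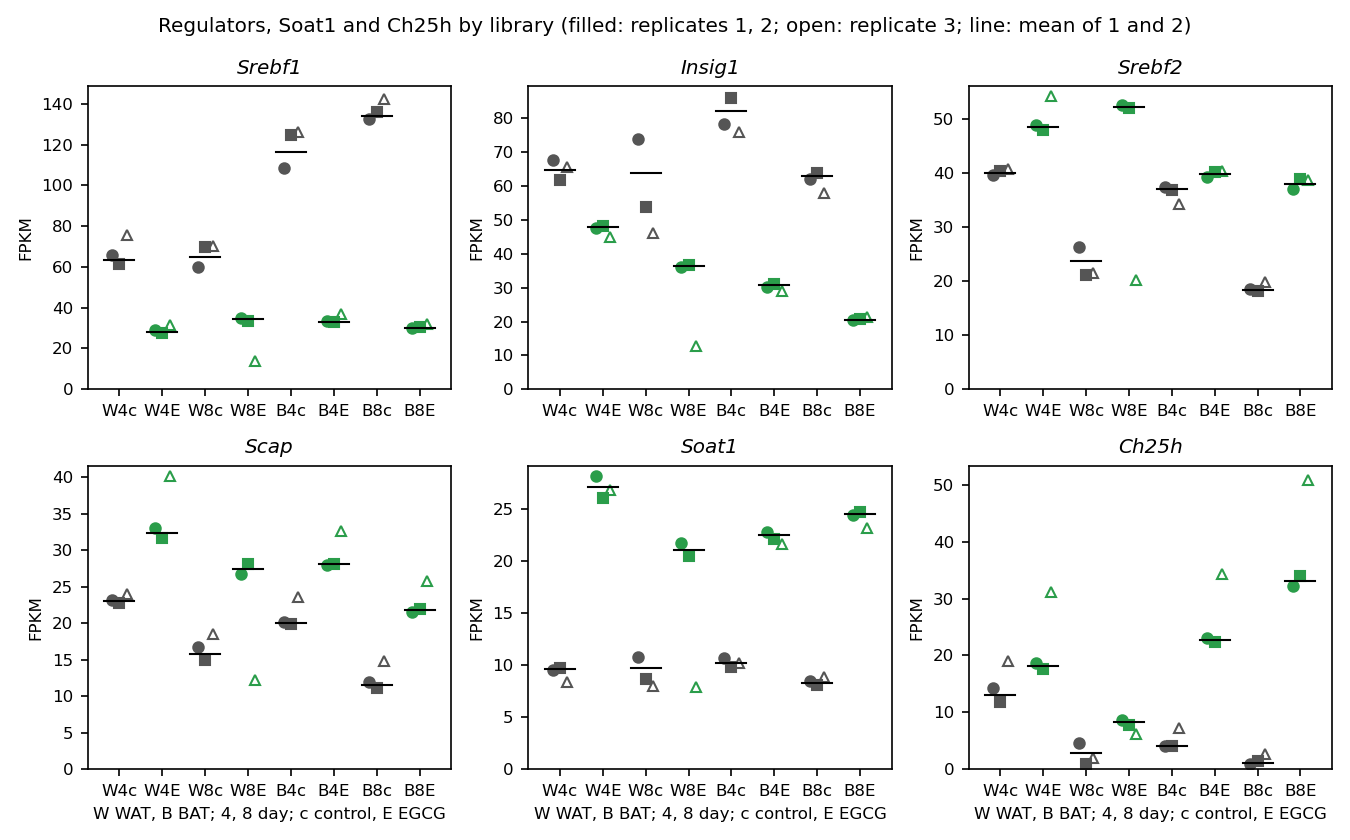
FPKM of Srebf1, Insig1, Srebf2, Scap, Soat1 and Ch25h in all 24 libraries, with groups along the x axis (W, WAT, B, BAT, 4 and 8, day, c, control in grey, E, EGCG in green). Filled symbols are replicates 1 and 2, open triangles replicate 3, and the line is the mean of replicates 1 and 2. In replicates 1 and 2, Srebf1 and Insig1 were lower and Soat1 higher in EGCG cells of both depots at both times, and Srebf2 fell from day 4 to day 8 in the controls, while its change between the days with EGCG (0.11 in WAT and -0.07 in BAT) did not pass the test.

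Of the 4 genes of uptake, trafficking and esterification, Soat1 (ENSMUSG00000026600.6, chromosome 1, 158358239 to 158404459) changed most. It encodes the enzyme of the endoplasmic reticulum that esterifies cholesterol with fatty acids for storage. It measured 9.54, 9.69 and 8.35 FPKM in WAT day 4 controls and 28.1, 26.1 and 26.8 with EGCG (log2 change 1.40 ± 0.0803 SE, adjusted p 8.35e-08). In BAT on day 8 it measured 8.45, 8.06 and 8.82 in controls and 24.4, 24.7 and 23.2 with EGCG, 2.98-fold higher (log2 change 1.47 ± 0.0803 SE, adjusted p 1.17e-08). The groups were far apart in both, and the other 2 changes were 1.05 in WAT on day 8 and 1.07 in BAT on day 4.

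Npc1 and Npc2 together export cholesterol from lysosomes, Npc1 in the membrane and Npc2 as the soluble carrier. On day 8 they moved in opposite directions. Npc1 measured 9.19, 9.28 and 9.59 FPKM in WAT controls and 20.6, 19.9 and 7.70 with EGCG (log2 change 1.05 ± 0.0477 SE, adjusted p 7.26e-09), and 18.1, 16.3 and 14.6 in BAT controls and 25.1, 24.4 and 24.2 with EGCG (0.50 ± 0.0477 SE). Npc2 measured 246, 265 and 265 FPKM in WAT controls and 138, 142 and 61.7 with EGCG, and 267, 267 and 292 in BAT controls and 145, 146 and 161 with EGCG, a log2 change of -0.87 ± 0.0505 SE in either depot. On day 4 the changes were small (0.05 and -0.06 for Npc1, -0.13 and -0.18 for Npc2), and that of Npc2 in BAT passed but was lost with quantile normalization (-0.05) and without the second BAT day 4 control (-0.10) or the second BAT day 4 EGCG library (-0.16). Exons of Npc1 overlap 3110002H16Rik and Gm15956 on the other strand.

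Stard4, a carrier of cholesterol between membranes and an SREBP target, was higher in WAT and lower in BAT on day 4. In WAT it measured 6.40, 6.98 and 6.52 FPKM in controls and 10.8, 11.3 and 10.1 with EGCG (log2 change 0.65 ± 0.114 SE, adjusted p 0.000501). In BAT it measured 9.91, 9.55 and 7.88 in controls and 6.38, 7.79 and 6.05 with EGCG (log2 change -0.41 ± 0.114 SE, adjusted p 0.01). The groups did not overlap in either depot, and the BAT change did not pass without the first control (-0.39) or the first EGCG library (-0.29). The difference between depots was -1.06 ± 0.161 SE (adjusted p 0.000597). On day 8 it was higher in WAT (0.85), and the BAT change (0.17) did not pass.

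Of the 4 efflux and oxysterol genes, Abca1 (ENSMUSG00000015243.4, chromosome 4, 53043659 to 53172767) and Abcg1 (ENSMUSG00000024030.6, chromosome 17, 31194643 to 31252722) are LXR targets that export cholesterol to lipoproteins. Abcg1 measured 20.3, 18.7 and 18.8 FPKM in BAT day 8 controls and 3.41, 3.21 and 3.27 with EGCG, 5.88-fold lower (log2 change -2.25 ± 0.0778 SE, adjusted p 2.87e-10). Abca1 measured 42.6, 39.4 and 30.7 FPKM in the same controls and 12.5, 11.8 and 9.39 with EGCG, 3.38-fold lower (log2 change -1.68 ± 0.0538 SE, adjusted p 1.53e-10). Both groups were far apart.

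In BAT on day 4 the changes were -1.02 for Abca1 and -0.63 for Abcg1. In WAT neither passed on day 4 (0.06 and -0.17), and both were lower on day 8. There Abca1 measured 39.5, 38.6 and 32.1 in controls and 24.6, 24.2 and 6.72 with EGCG (log2 change -0.66 ± 0.0538 SE), and Abcg1 measured 8.38, 8.92 and 9.29 in controls and 4.81, 5.15 and 1.94 with EGCG (-0.69 ± 0.0778 SE). The difference between depots was -1.08 ± 0.0761 SE for Abca1 on day 4 (adjusted p 3.25e-06) and -1.56 ± 0.11 SE for Abcg1 on day 8 (adjusted p 1.72e-06). Mylip, a ubiquitin ligase that LXR induces, was lower with EGCG on day 8 in WAT (-0.49) and BAT (-0.56). In BAT on day 8 it measured 11.5, 11 and 10.3 FPKM in controls and 7.57, 7.02 and 6.64 with EGCG. Its WAT day 4 increase (0.29, from 6.88, 7.65 and 6.53 to 8.81, 9.42 and 8.02) was lost with either scaling (0.17 and 0.20) and without the first WAT day 4 control (0.22) or the second WAT day 4 EGCG library (0.25).

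Ch25h (ENSMUSG00000050370.4, chromosome 19, 34548276 to 34549625) makes an oxysterol from cholesterol, and that product both activates LXR and holds SREBP back. It was the member with the largest increase. In BAT it measured 4.14, 3.99 and 7.32 FPKM in day 4 controls and 23.0, 22.4 and 34.4 with EGCG (log2 change 2.23 ± 0.337 SE, adjusted p 0.000188), and 0.844, 1.35 and 2.68 in day 8 controls and 32.2, 34.0 and 50.9 with EGCG (4.03 ± 0.337 SE, adjusted p 4.51e-07). The BAT groups were far apart on both days. In WAT it measured 14.2, 11.9 and 19.0 in day 4 controls and 18.7, 17.6 and 31.2 with EGCG, and 4.59, 0.941 and 2.01 in day 8 controls and 8.67, 7.77 and 6.10 with EGCG. The WAT groups overlapped on day 4 (0.45 ± 0.337 SE, adjusted p 0.283) and not on day 8 (1.48 ± 0.337 SE, adjusted p 0.00221). The WAT day 8 value was 2.25 without the first WAT day 8 control and 0.72 without the second, and passed in both cases. The effect was larger in BAT by 1.78 on day 4 and by 2.55 on day 8. Without the same controls the day 8 difference was 1.79 and 3.31, and the day 4 difference did not pass without the first WAT day 4 control (1.66) or with a pseudocount of 0.1 (1.98). Exons of Ch25h overlap Gm16704 on the other strand.

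The change from day 4 to day 8 was compared within each depot and treatment. These contrasts use the same libraries as the EGCG contrasts. In the controls Sc5d and Pmvk rose while Idi1, Sqle, Hsd17b7, Lbr and Srebf2 fell in both depots. In WAT controls 8 members were higher and 16 lower on day 8, against 61.0% of all genes tested called, 27.7% higher and 33.2% lower, and in BAT controls 8 were higher and 20 lower, against 69.2%, 28.7% higher and 40.4% lower. Among the 18 synthesis enzymes 4 were higher and 11 lower in WAT and 3 and 13 in BAT, and 10 were lower in both depots. The share of all genes tested that were lower in both depots was not counted. The median over the enzymes was -0.32 in WAT and -0.59 in BAT, beside -0.03 and -0.10 over all genes. The mature adipocyte markers went the other way, with 5 of 8 higher on day 8 in WAT and 7 of 8 in BAT. Of the macrophage markers 8 of 8 tested were higher on day 8 in WAT controls (median log2 change 1.29), and 1 was higher and 2 lower in BAT. Endothelial markers were higher for 4 of 6 in WAT and 3 of 6 in BAT, and fibroblast and progenitor markers were higher for 4 and lower for 1 of 6 in WAT and higher for 2 and lower for 3 in BAT. Their part in these changes was not tested.

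Sqle had the largest decrease of the squalene branch. It went from 24.7, 24 and 25.7 to 12.6, 8.99 and 8.74 FPKM in WAT controls (log2 change -1.12 ± 0.1 SE) and from 26.5, 26.6 and 26.5 to 8.40, 8.51 and 8.89 in BAT controls (-1.54 ± 0.1 SE, adjusted p 7.08e-08). Idi1 went from 13.7, 12.9 and 12 to 5.80, 5.97 and 5.20 in WAT (-1.06 ± 0.0615 SE) and from 17.9, 17.3 and 16.6 to 5.65, 6.24 and 4.96 in BAT (-1.42 ± 0.0615 SE, adjusted p 3.07e-09). The days did not overlap for either gene. Hsd17b7 (log2 change -0.97 in WAT and -1.28 in BAT) and Lbr (-0.82 and -1.43) fell too.

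Cyp51 fell in BAT controls, from 71.1, 75.4 and 74.2 to 32.6, 31 and 32.5 FPKM (-1.18 ± 0.142 SE). In WAT controls it passed as higher, from 51.0, 48.8 and 56.6 to 51.0, 80.5 and 76.0 (0.36 ± 0.142 SE, adjusted p 0.0474), with a first day 8 library at the level of day 4. That call was lost in 15 of the 16 fits without 1 library, with a change of 0.03 without the second day 8 control. In the other direction Sc5d rose from 22.8, 22.3 and 19.9 to 51.0, 57.9 and 44.4 in WAT controls (1.23 ± 0.0637 SE) and from 25.1, 27.8 and 25.8 to 61.3, 60.3 and 51.3 in BAT controls (1.17 ± 0.0637 SE). Pmvk rose from 12.9, 11 and 15.7 to 20.4, 29.7 and 28.7 in WAT (0.99 ± 0.149 SE) and from 19.7, 21.2 and 21.7 to 34.4, 36.3 and 33.5 in BAT (0.76 ± 0.149 SE). Days did not overlap for Sc5d or Pmvk.

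Among the regulators Srebf2 fell from 39.6, 40.4 and 40.8 to 26.2, 21.2 and 21.5 FPKM in WAT controls (-0.74 ± 0.0718 SE) and from 37.4, 36.8 and 34.2 to 18.5, 18.2 and 19.8 in BAT controls (-0.98 ± 0.0718 SE). Scap fell (-0.52 in WAT and -0.74 in BAT) and Insig2 rose (0.50 and 0.52). Srebf1 did not pass in WAT (0.02) and was slightly higher in BAT (0.20), a call that was lost with quantile normalization (0.09) and without the first BAT day 4 control (0.11) or either BAT day 8 control (0.22 and 0.18). Insig1 measured 74.1 and 53.9 FPKM in the WAT day 8 controls of replicates 1 and 2, and its WAT change of -0.03 did not pass, but it was 0.19 and passed as higher without replicate 2, and -0.26 and passed as lower without replicate 1. It was lower in BAT (-0.38), which did not pass without the second BAT day 4 control (-0.31) or with median-ratio scaling (-0.23).

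Among the handling genes Npc2 rose by 0.68 in WAT, Abcg1 rose by 0.95 in BAT, from 8.97, 10.3 and 10.9 to 20.3, 18.7 and 18.8 FPKM, and Mylip rose by 0.61 in BAT. Npc1 fell by 0.86 in WAT, from 17.5, 17.7 and 17.8 to 9.19, 9.28 and 9.59. Stard4 fell by 0.89 in BAT, from 9.91, 9.55 and 7.88 to 4.51, 5.09 and 4.37. Ch25h fell in both (-2.09 in WAT and -1.28 in BAT), and its WAT change was -1.33 without the second WAT day 8 control and -2.85 without the first.

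The days were compared in EGCG cells in the same way. In WAT EGCG cells 7 members were higher and 17 lower on day 8, against 59.5% of all genes called, 31.8% higher and 27.7% lower, and in BAT EGCG cells 3 were higher and 19 lower, against 58.0%, 29.7% higher and 28.2% lower. The 7 became 4 without the second WAT day 4 EGCG library or the first WAT day 8 EGCG library. Among the synthesis enzymes 5 were higher and 10 lower in WAT and 2 and 13 in BAT. Srebf2 did not pass in either depot (0.11 and -0.07), while Sqle (-0.57 in WAT and -0.65 in BAT) and Idi1 (-0.65 and -0.87) fell. Sc5d rose by 0.59 and 0.35. All 4 efflux and oxysterol genes were lower on day 8 in WAT EGCG cells, by -0.51 to -1.05, and Abca1 (-0.62) and Abcg1 (-0.67) were in BAT. The WAT call of Ch25h (-1.05) was lost without either WAT day 4 EGCG library (-1.02 and -1.09) or the second WAT day 8 EGCG library (-0.98). Macrophage markers were lower on day 8 for 7 of 8 in WAT and 8 of 8 in BAT EGCG cells (median log2 change -1.30 and -1.81), and mature adipocyte markers for 7 of 8 and 8 of 8 (-0.85 and -1.36). Endothelial markers were higher for 2 and lower for 3 of 6 in WAT and 2 and 2 in BAT, fibroblast and progenitor markers higher for 3 and lower for 2 of 6 in WAT and 1 and 2 in BAT, and the part of all these markers was not tested.

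The difference of the EGCG effect between the days (day 8 minus day 4) was tested in each depot. In WAT 10 members had a higher effect on day 8 and 12 a lower one, against 49.4% of all genes tested called, 29.7% higher and 19.7% lower, and in BAT 16 and 10, against 55.4%, 34.7% higher and 20.6% lower. The BAT split became 11 and 12 with median-ratio scaling. Srebf2 had a higher effect on day 8 in both depots (0.85 ± 0.102 SE in WAT and 0.91 ± 0.102 SE in BAT), as did Hsd17b7 (0.66 and 0.90), Sqle (0.55 and 0.89), Idi1 (0.41 and 0.56), Fdps (0.74 and 0.56), Npc1 (1.0 and 0.56) and Scap (0.29 and 0.39). Acat2 (-0.75 and -0.57), Pmvk (-1.04 and -0.90), Sc5d (-0.64 and -0.82), Npc2 (-0.74 and -0.69), Abca1 (-0.72 and -0.66) and Abcg1 (-0.52 and -1.62) had a lower one. The BAT call of Acat2 was lost without the first BAT day 4 control (-0.43), the first BAT day 8 control (-0.52), the second BAT day 4 EGCG library (-0.55) or the first BAT day 8 EGCG library (-0.43), and the WAT value of Sqle was 0.33 without the second WAT day 8 control. Fdft1 differed between the depots in this respect, with 0.40 in WAT and -0.55 in BAT. The macrophage markers were also lower in this difference, with 8 of 8 tested lower in each depot, as were 8 of 8 adipocyte markers, and their part in these values was not tested.

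The depots were compared in control cells. Most synthesis enzymes were higher in BAT on day 4, and the difference was mixed on day 8. On day 4, 20 of 31 members were higher in BAT and 2 lower (Scap, Ch25h), against 55.8% of all genes tested called, 41.4% higher and 14.4% lower, and on day 8, 12 were higher and 8 lower, against 53.6%, 31.6% higher and 22.0% lower. The Scap call on day 4 (-0.19) was lost without the first WAT day 4 control (-0.18) or the second BAT day 4 control (-0.18), and the 8 members lower on day 8 became 5 without the first WAT or the first BAT day 8 control. Of the synthesis enzymes 13 of 18 were higher in BAT on day 4, with a median of 0.36 beside 0.15 over all genes. With median-ratio or quantile scaling 9 of 18 passed as higher on day 4, and 13 of the 31 members. On day 8, 7 enzymes were higher and 5 lower, with a median of 0.06 beside 0.05.

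Acat2 was higher in BAT controls on both days, by 0.84 ± 0.128 SE on day 4, where WAT controls had 24.1, 23.8 and 27.4 FPKM and BAT controls 39.7, 48.2 and 51.0, and by 0.71 on day 8. Lss was higher by 0.78 ± 0.0669 SE and 0.46. Srebf1 was higher in BAT by 0.86 ± 0.0753 SE on day 4 and 1.04 ± 0.0753 SE on day 8 (adjusted p 5.01e-07), and no BAT control overlapped a WAT control. On day 8 Abcg1 (1.08 ± 0.0778 SE), Npc1 (0.83 ± 0.0477 SE) and Fdft1 (0.72 ± 0.051 SE) were higher in BAT, and Cyp51 (-0.99 ± 0.142 SE), Lbr (-0.45), Scap (-0.42) and Srebf2 (-0.35, or -0.20 without the first WAT day 8 control) were lower. Ch25h was lower in BAT on day 4 (-1.47 ± 0.337 SE, adjusted p 0.00321), and its day 8 value (-0.66) did not pass. Adipocyte markers were higher in BAT too, 8 of 8 on day 4 and 7 of 8 on day 8. Macrophage markers were higher in BAT for 7 of 8 on day 4 (median log2 difference 1.06) and lower for 5 of 8 on day 8 (-0.40). Fibroblast and progenitor markers were lower for 4 of 6 on both days (-0.96 and -0.90), and endothelial markers for 4 of 6 on both days (-0.30 and -0.35), with 1 of each higher on day 4. The part of these markers in the differences was not tested.

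The level of each role group was taken as the mean of log2(FPKM + 1) over its genes in a library. The synthesis enzymes stood highest in BAT day 4 controls (4.59 ± 0.0348, SD, n = 2) and lowest in BAT day 8 cells with EGCG (3.70 ± 0.04). WAT controls and EGCG cells differed by less, with 4.21 ± 0.0384 and 4.25 ± 0.0132 on day 4, and 3.99 ± 0.0665 and 4.00 ± 0.003 on day 8. The day 8 means in WAT differed by less than the SD of the controls. The regulators as a mean went from 5.41 ± 0.0375 to 4.88 ± 0.0104 in BAT on day 4 and from 5.13 ± 0.0037 to 4.68 ± 0.0334 on day 8. In WAT the regulator mean moved less, from 5.13 ± 0.0465 to 5.08 ± 0.0308 on day 4. On day 8 in WAT it went from 4.98 ± 0.11 to 5.03 ± 0.01, a shift smaller than the SD of the controls. Opposite changes cancelled in part in this mean, as Scap rose where Srebf1 and Insig1 fell. The uptake, trafficking and esterification genes went from 4.47 ± 0.019 to 4.97 ± 0.0006 in WAT on day 4 and from 4.50 ± 0.0107 to 4.82 ± 0.0186 in BAT on day 8. In WAT on day 8 they went from 4.35 ± 0.096 to 4.87 ± 0.0265, and the rise of their mean in BAT on day 4 was the smallest. Opposite changes cancelled in part in this mean too. In BAT on day 4 only Soat1 was called higher with EGCG, while Npc2 and Stard4 were called lower. The median log2 change of the group was -0.12 there. On day 8 Npc2 was lower with EGCG in both depots, where the mean rose. In the mean of the efflux and oxysterol genes opposite changes cancelled, as in BAT Ch25h rose where Abca1 and Abcg1 fell.

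**Figure D5:**
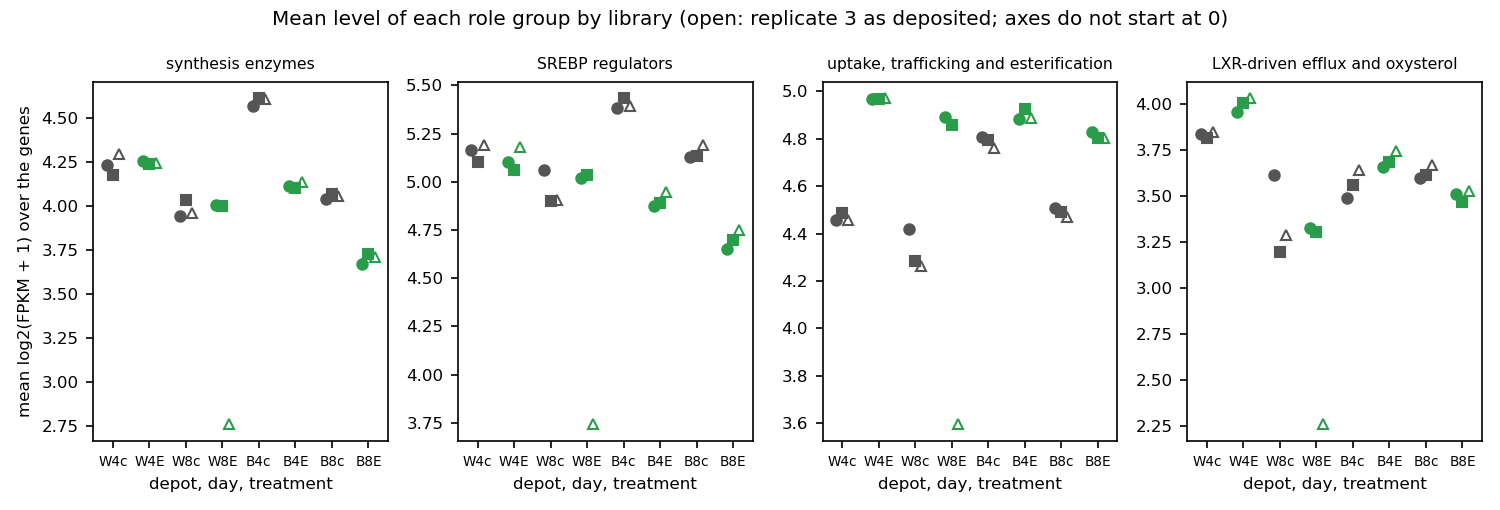
Mean log2(FPKM + 1) of the synthesis enzymes, regulators, uptake, trafficking and esterification genes, and efflux and oxysterol genes in each of the 24 libraries, with groups along the x axis (W, WAT, B, BAT, 4 and 8, day, c, control in grey, E, EGCG in green). Open triangles are replicate 3 as deposited, and the y axes do not start at 0. The open triangle of WAT day 8 EGCG lies far below the other libraries in all 4 panels.

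The 42 other sterol pathway genes, of which 41 were tested, cover SREBP cleavage, sterol-regulated degradation, prenylation, LXR and its partners, lipoprotein uptake and sterol transport. With EGCG 17 were higher and 10 lower in WAT on day 4, 19 and 9 in WAT on day 8, 9 and 14 in BAT on day 4, and 16 and 16 in BAT on day 8. Of all genes tested 34.4% were higher and 19.3% lower in the first of these contrasts, 44.7% and 18.9% in the second, 27.9% and 20.6% in the third, and 46.5% and 26.1% in the last, near the shares of these genes in WAT. Between the depots 9 had a lower EGCG effect in BAT on day 4 and 4 a higher one, and on day 8 these were 14 and 5, beside 16.1% and 12.0% of all genes on day 4 and 19.7% and 19.4% on day 8.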

How the data were processed

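mRNA of 24 libraries was measured by RNA-seq. The authors deposited FPKM values for 37310 genes in 2 tables, with replicates 1 and 2 in one and replicate 3 in the other. The submitters' processing notes name FastQC 0.11.9, HISAT2 2.2.0, HTSeq 0.11 and build mm9, and the strand setting of counting is not given in the sources used here. FPKM divides by the reads on genes, so that a few very high genes lower all others. Read totals per library were recovered from the steps of the values, and a floor of 3 reads for a gene 2 kb long corresponds to 0.0284 to 0.0380 FPKM in replicates 1 and 2. It covers counting error only.

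Replicates 1 and 2 of the 8 groups were fitted together in limma 3.58.1 (R 4.3.3) on log2(FPKM + 1), with 1 mean per group, a trended prior and 8 residual degrees of freedom, over 14095 genes with FPKM of at least 1 in at least 2 of 16 libraries. Tests were two-sided, with Benjamini-Hochberg adjustment over all genes tested for each of 14 contrasts separately, with an adjusted p under 0.05 as the threshold for a call. Changes are on this scale, which understates those of low genes. Folds are ratios of mean FPKM of replicates 1 and 2. The script was tested on simulated data. The members and lists were chosen with earlier results of these data known. Values per library were given for members among the 3 largest EGCG changes of their role group, those called in opposite directions in the depots on a day, and the highest or lowest of a role group between days or depots. Replicates of a group differed by more than sampling noise. Other pseudocounts, filters, scalings, a replicate block, leaving out each library and adding the second table were tried as alternatives. Promoters came from RefSeq (GRCm38.p6).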

Additional observations from a re-analysis of the deposited data

Results flagged for a closer look

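The EGCG effect differed between WAT and BAT, by the interaction in limma, for 23 of the 31 members on day 4 and for 21 on day 8, beside 28.1% and 39.2% of all genes tested. It was called in opposite directions in the depots on day 4 for Idi1 (difference of the log2 changes, BAT minus WAT, -0.69), Sqle (-0.67), Lss (-1.23), Sc5d (-0.50) and Stard4 (-1.06), and on day 8 for Fdps (-0.68) and Fdft1 (-1.35). Of these, the BAT call of Sqle, the WAT call of Sc5d and the BAT call of Stard4 on day 4 were lost without single libraries, and the WAT call of Fdps on day 8 with median-ratio scaling.

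The effect differed between day 4 and day 8 for 22 members in WAT and for 26 in BAT, beside 49.4% and 55.4% of all genes tested. It was called in opposite directions on the 2 days in WAT for Fdps (day 8 minus day 4, 0.74), Sc5d (-0.64) and Mylip (-0.78), and in BAT for Idi1 (0.56), Fdft1 (-0.55) and Sqle (0.89). The day 4 calls of Sc5d and Mylip in WAT and of Sqle and Fdft1 in BAT were lost under at least 1 alternative. So were the day 8 calls of Fdps in WAT and of Idi1 in BAT.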

How the results depend on the processing

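With 2 libraries per group in the fit, the spread was shared by all groups. A replicate block on replicates 1 and 2 moved the counts of called members from 24 to 22 (WAT control days), from 20 to 21 (depots on day 8) and from 22 to 21 (EGCG effect between days in WAT), where Cyp51, Abca1 and Ebp lost a call. Deviations of same-numbered libraries correlated between -0.079 and 0.081 across groups. Such a correlation over all genes cannot settle whether these libraries shared cells or a batch. Leaving out each library in turn gave 15 to 24, 24 to 28, 21 to 27 and 27 to 29 called members for EGCG in WAT day 4, WAT day 8, BAT day 4 and BAT day 8. It gave 20 to 23, 25 to 28, 20 to 26 and 20 to 23 between days in WAT controls, BAT controls, WAT EGCG and BAT EGCG cells, 17 to 25 and 16 to 24 between depots on day 4 and day 8, 18 to 25 and 19 to 24 for the EGCG effect between depots, and 19 to 23 and 23 to 27 for it between days in WAT and BAT.

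With all 24 libraries as deposited and a replicate block, the called members were 5 in WAT day 4 and 14 in BAT day 4 with EGCG, 12, 18 and 8 between days in WAT controls, BAT controls and BAT EGCG cells, 5 and 6 between depots, 3 and 4 for the EGCG effect between depots, and 9 and 2 for it between days. Without the third WAT day 8 EGCG library these were 24 and 26, 26, 28 and 23, 26 and 20, 23 and 23, and 24 and 27. With all 24 the direction turned for Fdps (-0.16) and Ggps1 (-0.048) with EGCG in WAT on day 8, for Mvk (-0.20), Fdps (-0.0765), Fdft1 (-0.30), Srebf1 (-0.19) and Npc1 (-0.30) between days in WAT EGCG cells, and for Idi1 (-0.0564), Fdft1 (-0.0251), Ebp (-0.0139) and Scap (-0.24) in the EGCG effect between days in WAT. After median-ratio scaling of the 24 it turned for Lss (-0.16) and Insig2 (-0.15) with EGCG in WAT on day 8 and for Abca1 (-0.0083) between depots on day 4.

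In replicates 1 and 2, Insig2 with EGCG in WAT on day 8 turned to -0.17 with median-ratio scaling and to -0.15 with quantile normalization. Without the second WAT day 8 control, Insig1 turned to 0.19 between days in WAT controls and Hsd17b7 to -0.18 between depots on day 8, where Insig1 was -0.23, and without the first Insig1 turned to 0.22 between depots on day 8 and was -0.26 between days in WAT controls. Over the 31 members in 14 contrasts, median-ratio scaling ended 31 calls and added 14, and quantile normalization ended 25 and added 12, while testing without the filter on low values ended 21, a prior without trend 11 and a pseudocount of 0.1 ended 5. The cause was not tested for any of these.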
